A study of Mus musculus with 18 samples.

Results

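The 9 genes described here encode core steps of insulin receptor signalling: Insr, Irs1, Irs2, Pik3r1, Pik3ca, Akt1, Akt2, Foxo1 and Grb14. They were taken from the count table by gene symbol, each symbol named exactly 1 row, and the table listed 54347 genes. The samples were cultures of wt1-SAM cells, an immortalised mouse brown preadipocyte line that stably carries the CRISPR activation machinery SAM, so every group shared that machinery and the same cell line. Cells were differentiated, reverse transfected on day 4 with a locked nucleic acid gapmer (LNA, a modified antisense oligonucleotide) and harvested on day 7 for sequencing of polyadenylated RNA. The LNAs were ctrlA, a non-targeting control, and LNA1 and LNA2, which are directed against the long non-coding RNA Gm15551. For each LNA, cells were left unstimulated or received 1 µM isoproterenol, a β-adrenergic agonist, over the last 24 h, which gave 6 groups of 3 libraries with the replicate numbers 2, 3 and 4. Insulin at 850 nM was part of the induction medium, together with rosiglitazone, T3, dexamethasone, indomethacin and IBMX, and stayed in the medium that followed, while later media are described with 0.5 µM rosiglitazone alone and the medium after transfection only as the usual one for differentiation. What a replicate number stands for was not stated, so p-values measure the spread between these libraries, which may be technical.

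Insulin binds a receptor tyrosine kinase that phosphorylates docking proteins, and these recruit phosphoinositide 3-kinase, a dimer of a regulatory and a catalytic subunit. The lipid that this enzyme makes activates AKT kinases, which in adipocytes move the glucose transporter GLUT4 to the surface, restrain lipolysis and keep FOXO transcription factors out of the nucleus. In brown adipocytes β-adrenergic agonists act through cAMP, which drives lipolysis and heat production, so insulin and adrenergic signals meet in the same cell.

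Coordinates are from the GENCODE M21 annotation of the mouse build GRCm38, counted from 1. The receptor gene Insr (ENSMUSG00000005534.10) lies at chr8:3122061-3279617 on the minus strand. The docking proteins are encoded by Irs1 (ENSMUSG00000055980.2, chr1:82233101-82291416, minus strand) and Irs2 (ENSMUSG00000038894.7, chr8:10984681-11008458, minus strand). Pik3r1 (ENSMUSG00000041417.15, chr13:101680563-101768217, minus strand) encodes the regulatory subunits p85α, p55α and p50α through 7 annotated transcripts, which values per gene cannot separate. Pik3ca (ENSMUSG00000027665.13, chr3:32397671-32468486, plus strand) encodes the catalytic subunit p110α. The kinases are encoded by Akt1 (ENSMUSG00000001729.14, chr12:112653821-112674884, minus strand) and Akt2 (ENSMUSG00000004056.15, chr7:27591552-27640826, plus strand). Foxo1 (ENSMUSG00000044167.6, chr3:52268336-52353221, plus strand) encodes the transcription factor that AKT phosphorylates, and Grb14 (ENSMUSG00000026888.14, chr2:64912476-65024987, minus strand) encodes an adaptor that binds the receptor and inhibits its kinase. Exons of Irs1, Irs2 and Foxo1 overlap those of Gm9747, 9530052E02Rik and Gm20402 on the other strand. Whether the quantification used strand was not stated, so reads of these pairs may not be told apart. Gm9747 had a mean of 8.34 CPM against 67.8 CPM for Irs1, and the other 2 overlapping genes had at most 12 counts in any library.

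The LNAs are shown 5′ to 3′ because each group is defined by one of them.
ctrlA: aacacgtctatacgc
LNA1: gatgactgagattaga
LNA2: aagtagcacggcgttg
LNA1 and LNA2 were complementary to annotated transcripts of Gm15551 over all 16 of their bases. In spliced transcripts of the 9 members, the longest complementary run was 9 bases for LNA1 (Insr and Foxo1), 9 bases for LNA2 (Irs1) and 10 bases for ctrlA (Irs1). Runs at least that long occurred in 12.4% of the tested genes for LNA1, in 4.19% for LNA2 and in 0.435% for ctrlA. Pik3r1 held a run of 8 bases for LNA1, a length reached in 40.5% of tested genes, and none of 8 or more bases for LNA2 or ctrlA.

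The promoters of Irs1, Irs2 and Pik3r1 are shown because Irs1 and Irs2 moved in opposite directions with isoproterenol in the fit with the replicate block, and because Pik3r1 had the largest response and has 2 annotated start windows. The windows run from 250 bases before to 50 bases after a start site and come from RefSeq on GRCm38.p6, written 5′ to 3′ on the strand of the gene. Capitals mark the E-box CACGTG in Irs1 and Irs2 and, in the second window of Pik3r1, the CRE half-site TGACG in its reverse orientation.
Irs1 (chr1:82291390-82291689, minus strand): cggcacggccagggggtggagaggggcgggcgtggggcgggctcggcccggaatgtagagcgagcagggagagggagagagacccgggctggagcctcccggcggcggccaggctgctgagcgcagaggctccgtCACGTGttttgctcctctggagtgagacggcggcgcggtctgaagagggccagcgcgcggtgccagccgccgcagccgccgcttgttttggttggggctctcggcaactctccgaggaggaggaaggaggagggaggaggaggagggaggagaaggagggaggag
Irs2 (chr8:11008880-11009179, minus strand): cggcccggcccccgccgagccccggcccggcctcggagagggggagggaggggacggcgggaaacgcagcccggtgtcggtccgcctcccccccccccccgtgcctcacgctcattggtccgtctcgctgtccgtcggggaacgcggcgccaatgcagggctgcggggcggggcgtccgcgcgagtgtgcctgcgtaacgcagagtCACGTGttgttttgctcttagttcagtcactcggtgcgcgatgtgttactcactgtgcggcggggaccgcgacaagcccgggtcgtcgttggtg
Pik3r1, upstream start (chr13:101768168-101768467, minus strand): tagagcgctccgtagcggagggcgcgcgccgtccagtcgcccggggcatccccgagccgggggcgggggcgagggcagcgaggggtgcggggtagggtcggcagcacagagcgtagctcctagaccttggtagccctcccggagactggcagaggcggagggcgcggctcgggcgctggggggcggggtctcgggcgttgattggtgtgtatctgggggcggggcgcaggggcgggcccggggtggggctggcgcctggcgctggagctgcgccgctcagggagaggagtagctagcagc
Pik3r1, downstream start (chr13:101692581-101692880, minus strand): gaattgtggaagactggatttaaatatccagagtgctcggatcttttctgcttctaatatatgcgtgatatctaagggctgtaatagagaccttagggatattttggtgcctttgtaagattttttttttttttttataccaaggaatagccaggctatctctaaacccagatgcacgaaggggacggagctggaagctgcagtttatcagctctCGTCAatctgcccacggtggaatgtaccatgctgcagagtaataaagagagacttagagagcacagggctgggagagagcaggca

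The table of promoters held 13 windows for 8 of the 9 members, and Insr had no entry. Motifs were searched on both strands as exact letters. The E-box CACGTG, which is its own reverse complement, occurred in Irs1 and Irs2 and in no window of the other 6 members, against 7.15% of all 32851 windows in the table. In Irs1 and Irs2 it stood inside a shared run of 10 bases, GTCACGTGTT, and no longer run was common to these windows. The full cAMP response element TGACGTCA was in no window of the members and in 1.79% of all windows. Its half-site TGACG, which lies within the full element, was found in Irs1, Pik3r1 and Akt2 and in 20.8% of all windows, and that of Irs1 overlapped its E-box. The letters GTAAACA, the core of a FOXO element, were found in Akt1 alone among the members and in 3.65% of all windows. The Pik3r1 windows differed in composition, with 75.7% G and C at the upstream start and 43.7% at the downstream start.

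Library totals ranged from 9167560 to 19723021 counts, of which the 9 members took 9590 to 22556 counts. Levels are given as CPM, counts relative to the TMM-scaled library size, and 3 counts, taken as the floor of detection, corresponded to 0.170 to 0.306 CPM, which covers counting error only. The replicate 2 libraries stood apart, with 2.88% to 14.3% of counts in nuclear ribosomal RNA genes and 0.575% to 0.984% in mitochondrial genes, against 0.285% to 1.04% and 0.0892% to 0.373% in replicates 3 and 4. The adipocyte markers Fabp4 and Lpl were at 7081 to 20720 and 3358 to 4969 CPM, and all 8 adipocyte markers were over the floor in 18 libraries. Of the 6 brown adipocyte markers 5 were over the floor in 18 libraries, from Elovl3 at a mean of 289.5 CPM and Ppargc1a at 65.0 CPM to Cidea at 12.5, Ucp1 at 6.99 and Prdm16 at 6.32 CPM, while Dio2 had at most 4 counts. Of the markers of other cells, Ly6a (mean 23.6 CPM), Pdgfrb (20.1) and Pdgfra (11.1) of the preadipocyte list, Cd68 (19.5) of the macrophage list and Pecam1 (2.56) of the endothelial list were over the floor in 18 libraries. Thy1, Ptprc, Adgre1, Kdr, Tek, Emcn and Cldn5 of the same lists had at most 3 counts in any library. Gm15551, the target of LNA1 and LNA2, had 2 to 14 counts in the 6 ctrlA libraries, 1 to 12 in LNA1 and 1 to 13 in LNA2. These ranges overlap and lie near the floor, so this gene does not check the LNA labels of single libraries. Stimulation was seen in the cAMP response list, where 7 of 14 tested genes rose with isoproterenol and none fell without the replicate block, next to 2.67% of all tested genes higher and 1.91% lower, and 9 rose and 1 fell with it, next to 14.2% and 12.2% (edgeR, adjusted p below 0.05). Without the block they included Ucp1 with a log2 fold change of 3.51, Nr4a3 with 2.32, Nr4a1 with 2.06 and Pde4b with 1.24.

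Of the 9 genes, 8 passed the filter on low counts and were tested among 14949 genes over the same 18 libraries. Per kilobase of merged exon length, mean levels were 44.2 CPM for Irs2, 39.7 for Akt2, 32.0 for Akt1, 17.6 for Pik3r1, 12.9 for Insr, 10.3 for Foxo1, 7.42 for Irs1, 7.36 for Pik3ca and 0.0594 for Grb14. The order of some neighbours turned with the replicate number: Irs2 was above Akt2 in 12 of the 12 libraries of replicates 3 and 4 and in 0 of 6 of replicate 2. Irs1 was above Pik3ca in 11 of 12 and in 0 of 6, so over all 18 libraries neither pair differed beyond its spread. Pik3r1 was above Insr in 6 of 6 libraries of replicate 2 and 9 of 12 of the others. Akt2 exceeded Akt1, and Akt1 exceeded Pik3r1, in 18 of 18 libraries. With the longest transcript as the length, Akt2 led at 62.3 CPM per kilobase, followed by Akt1 at 48.7 and Irs2 at 44.2, so the order at the top depends on the length chosen.

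**Figure D1:**
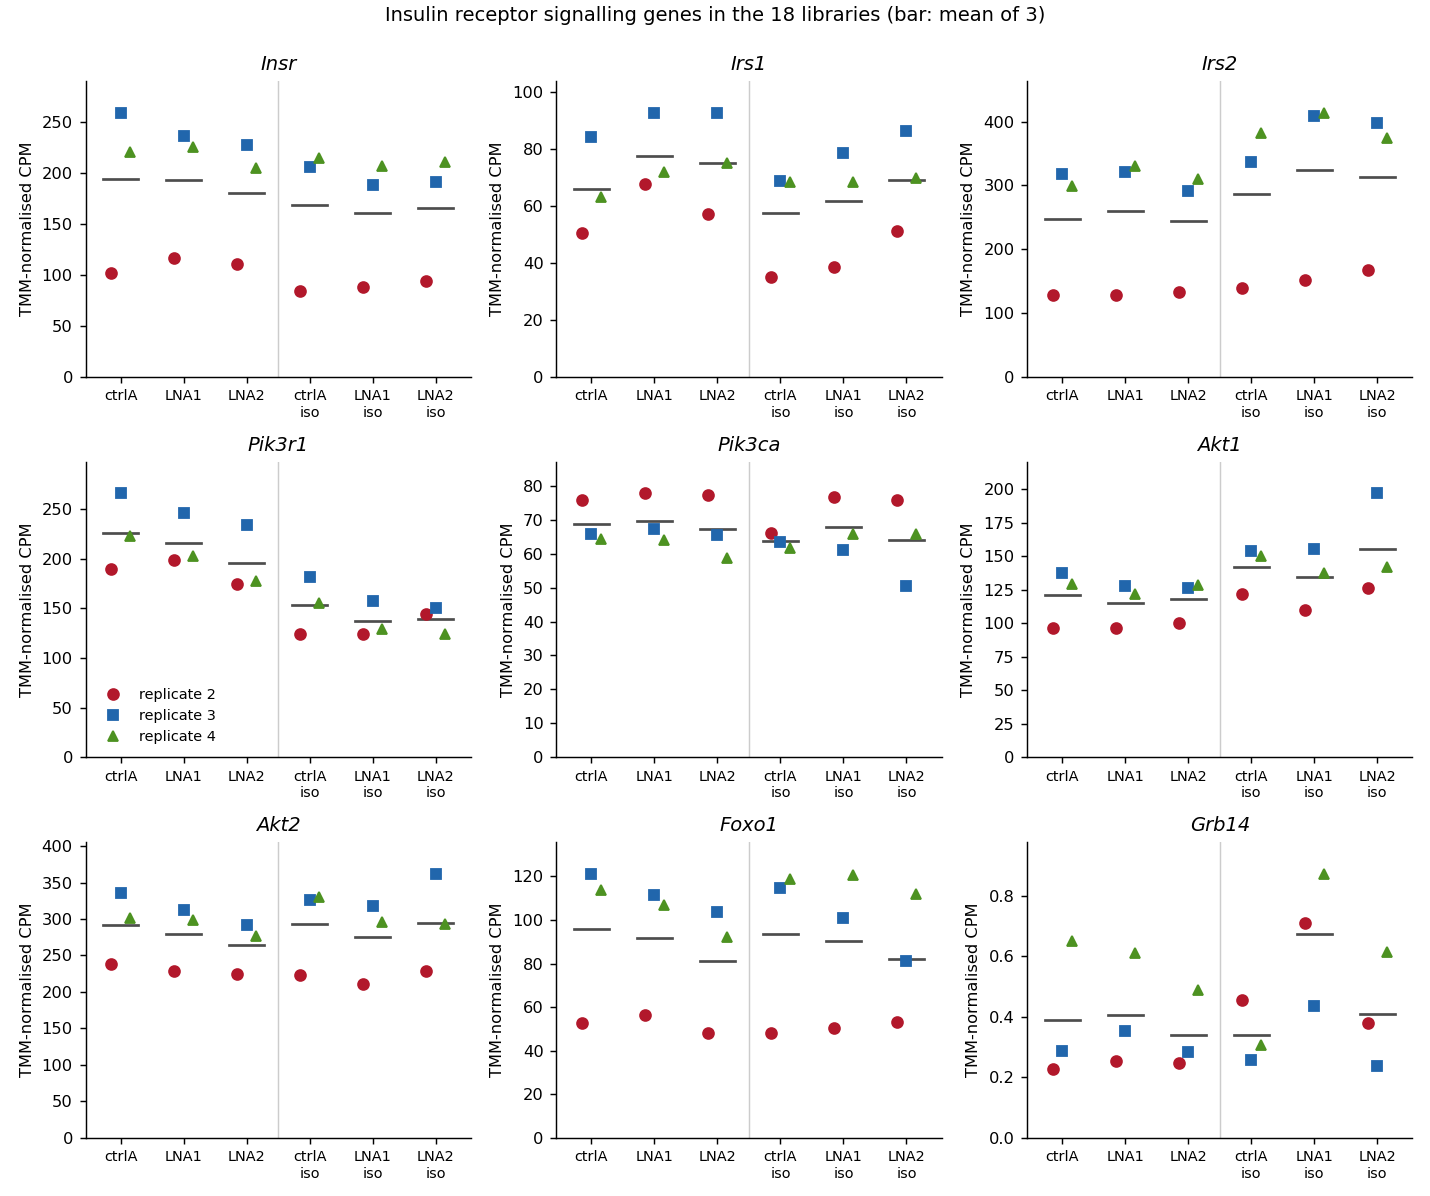
Level of each gene in TMM-normalised CPM (y axes from 0) in the 6 groups on the x axis, with 1 point per library marked by replicate number and a bar at the mean of 3. The replicate 2 points of Insr, Irs2, Akt2 and Foxo1 lie below those of every other library, and the isoproterenol points of Pik3r1 lie below the unstimulated point of the same LNA and replicate number.

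The replicate number was the largest source of spread for most of these genes. It took 93.5% of the sum of squares of Insr on the log2(CPM + 0.5) scale, 93.4% of Irs2, 92.8% of Foxo1 and 89.6% of Akt2. The median over all 14949 tested genes was 49.6%. Pik3r1 was the exception among the 9, with 20.6% for the replicate number and 68.5% for isoproterenol, where the median over all tested genes was 4.30%. The LNA took 0.0432% of Insr and at most 7.35% of any tested member.

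Insr ranged from 84.1 to 117 CPM in replicate 2 and from 188 to 259 CPM in replicates 3 and 4. Irs2 ranged from 128 to 167 CPM in replicate 2 and from 291 to 414 CPM in the others. Foxo1 ranged from 47.9 to 56.4 CPM against 81.0 to 121 CPM. For these genes and for Akt2, the replicate 2 libraries did not overlap the rest, and the level in replicates 3 and 4 was 2.18-fold that in replicate 2 for Insr, 2.46-fold for Irs2, 2.08-fold for Foxo1 and 1.38-fold for Akt2. Over all tested genes, 17.1% had every replicate 2 library below every other library and 17.4% had every one above. Irs1 and Akt1 were also lower on average in replicate 2, and Pik3ca was higher, but their libraries overlapped. In bulk RNA, fewer cells of a type and less RNA per cell cannot be told apart, and the part of the ribosomal and mitochondrial RNA shares in these differences was not tested.

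**Figure D2:**
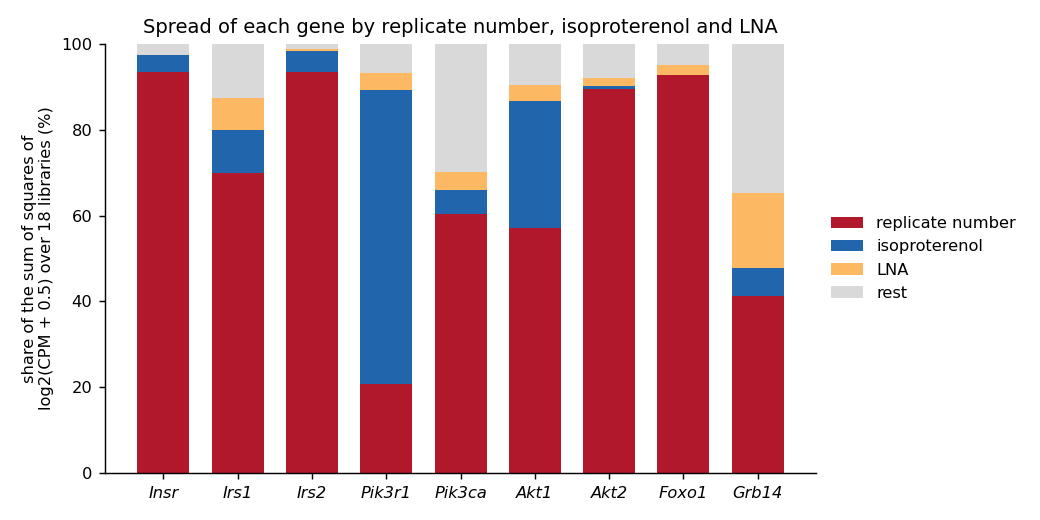
Share of the sum of squares of log2(CPM + 0.5) over the 18 libraries (y axis, in percent) taken by replicate number, isoproterenol and LNA for each gene, with the rest in grey. The replicate number takes 93.5% for Insr and 20.6% for Pik3r1, and isoproterenol takes 68.5% for Pik3r1.

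The comparison of isoproterenol with unstimulated cells asked which genes respond to β-adrenergic stimulation, with 9 libraries against 9. Pik3r1, the regulatory subunit, fell, and it was the only member that passed in the model with 1 term per group. Because same-numbered libraries deviated together in every pair, the model was also fitted with the replicate number as a block. In that fit Pik3r1, Insr and Irs1 fell, Irs2 and Akt1 rose, and Pik3ca, Akt2 and Foxo1 did not pass. Without the block 1 of 8 tested members passed (edgeR, adjusted p below 0.05), where 4.58% of all tested genes did, 2.67% higher and 1.91% lower. With the block 5 of 8 passed, 2 higher and 3 lower, where 26.4% of all tested genes did, 14.2% higher and 12.2% lower. The median log2 fold change of the 8 members was -0.05 with the block and that of all tested genes was -0.00399.

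In ctrlA cells Pik3r1 was at 189, 266 and 222 CPM unstimulated (replicates 2, 3 and 4 in this order, here and below) and at 124, 181 and 156 CPM with isoproterenol. In LNA1 cells it was at 198, 246 and 203 CPM unstimulated and at 124, 157 and 129 CPM stimulated. In LNA2 cells the values were 175, 234 and 177 CPM and 144, 150.0 and 124 CPM. Each stimulated library lay below its unstimulated partner, and only the stimulated ctrlA library of replicate 3, at 181 CPM, reached into the unstimulated range of 175 to 266 CPM. Means ± SD over 9 libraries each were 212 ± 31.6 CPM before and 143 ± 19.8 CPM after isoproterenol. Its log2 fold change was -0.57 (SE 0.11, edgeR adjusted p = 0.0046) without the block and -0.56 (SE 0.05, edgeR adjusted p = 3.6e-07) with it. Within the 9 pairs the difference ran from -0.68 to -0.28 on the log2(CPM + 0.5) scale, and 6.91% of all tested genes were lower in 9 of 9 pairs. Pik3r1 passed with each of the 18 libraries left out in turn, with edgeR adjusted p from 0.0043 to 0.0144 without the block. It was also the only member past an absolute log2 fold change of 0.5, which 3.2% of all tested genes passed together with the adjusted p.

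The catalytic partner Pik3ca did not pass. Its lowest, median and highest levels were 58.8, 65.7 and 77.8 CPM unstimulated and 50.5, 65.8 and 76.8 CPM stimulated, so that the groups overlapped over most of their range. On the log2 scale the change was -0.07 (SE 0.05, edgeR adjusted p = 0.34 with the block). Per kilobase, counts of Pik3r1 were 2.04 to 3.65 times those of Pik3ca in unstimulated libraries and 1.46 to 2.68 times in stimulated ones. This ratio is free of scaling between libraries, and it was lower in 9 of 9 pairs, with a median fold of 0.705.

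**Figure D3:**
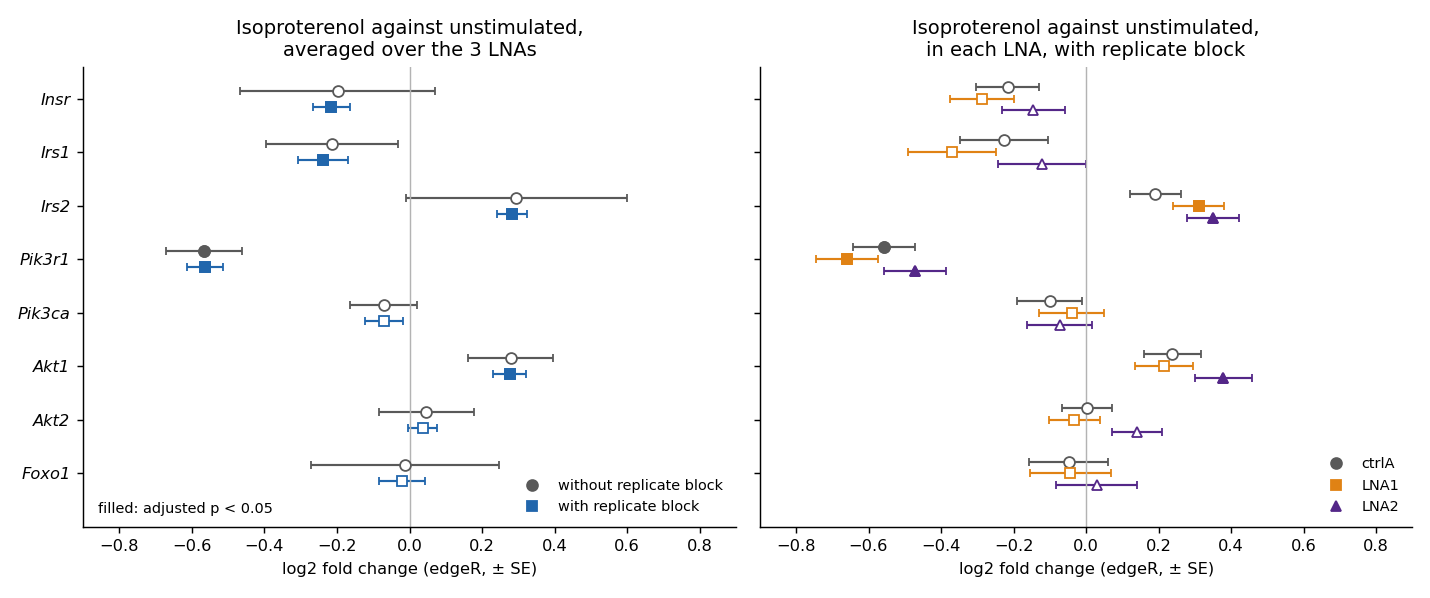
Log2 fold change with isoproterenol (x axis, edgeR, bars ± SE) for the 8 tested genes, averaged over the LNAs without and with the replicate block (left) and for each LNA with the block (right), with filled points at adjusted p below 0.05. The block leaves the values nearly in place and shortens the bars, for example from 0.30 to 0.04 for Irs2, and Pik3r1 is filled in every LNA.

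Irs2 was at 128, 318 and 298 CPM in unstimulated ctrlA cells and at 139, 337 and 382 CPM after isoproterenol. In LNA1 cells it was at 128, 322 and 330 CPM before and 152, 408 and 414 CPM after, and in LNA2 cells at 133, 291 and 310 CPM before and 167, 397 and 374 CPM after. The stimulated library was higher in 9 of 9 pairs, by 0.08 to 0.45 on the log2(CPM + 0.5) scale, where 8.4% of all tested genes were higher in 9 of 9. The groups as a whole overlapped, because both spanned the distance between replicate 2 and the other replicates. The log2 fold change was 0.29 (SE 0.30, edgeR adjusted p = 0.81) without the block and 0.28 (SE 0.04, edgeR adjusted p = 7.2e-05) with it. Irs2 rose also when the 6 replicate 2 libraries were left out, without a block, by 0.30 (SE 0.06, edgeR adjusted p = 0.0059).

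Irs1, the other docking protein, had the opposite sign. It was at 50.7, 84.3 and 63.1 CPM in unstimulated ctrlA cells and at 35.0, 68.8 and 68.4 CPM after isoproterenol. In LNA1 cells it was at 67.7, 92.6 and 72.1 CPM before and 38.5, 78.6 and 68.6 CPM after, and in LNA2 cells at 57.2, 92.8 and 75.2 CPM before and 51.4, 86.3 and 69.9 CPM after. Irs1 fell below its partner in 8 of 9 pairs, all but replicate 4 of ctrlA. The fitted log2 change was -0.21 (SE 0.18, edgeR adjusted p = 0.72) without the block and -0.24 (SE 0.07, edgeR adjusted p = 0.019) with it. Without the replicate 2 libraries the blocked value was -0.12 (SE 0.06, edgeR adjusted p = 0.23), so the call for Irs1 rests on those libraries. Gm9747, which shares exon positions with Irs1 on the other strand, was also lower with the block (log2 fold change -0.60, edgeR adjusted p = 0.013), and its part in the Irs1 value was not tested. Per kilobase, Irs2 counts were 2.73 to 6.84 times those of Irs1 in unstimulated libraries and 4.71 to 8.72 times in stimulated ones, and the ratio was higher in 9 of 9 pairs with a median fold of 1.40.

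For the receptor, Insr levels in ctrlA cells were 102, 259 and 220.2 CPM unstimulated and 84.1, 206 and 214 CPM stimulated. In LNA1 cells they were 117, 236 and 225 CPM before and 87.6, 188 and 206 CPM after, and in LNA2 cells 110.2, 227 and 205 CPM before and 94.2, 191 and 210.3 CPM after. Stimulated Insr values were the lower ones in 8 of 9 pairs, all but replicate 4 of LNA2. The log2 fold change was -0.20 (SE 0.27, edgeR adjusted p = 0.87) without the block and -0.22 (SE 0.05, edgeR adjusted p = 0.0046) with it. Without the replicate 2 libraries the blocked value was -0.18 (SE 0.06, edgeR adjusted p = 0.094), so this call too is lost without them.

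Of the AKT kinases, Akt1 was at 96.2, 138 and 129 CPM in unstimulated ctrlA cells and at 122, 154 and 150.1 CPM after isoproterenol. In LNA1 cells it was at 96.6, 128 and 122 CPM before and 109.9, 155 and 138 CPM after, and in LNA2 cells at 100.4, 127 and 128 CPM before and 126, 197 and 142 CPM after. Akt1 was higher in 9 of 9 pairs, by 0.15 to 0.64 on the log2(CPM + 0.5) scale, and its highest value of 197 CPM belonged to a single LNA2 library of replicate 3. The log2 fold change was 0.28 in either fit (SE 0.12, edgeR adjusted p = 0.25 without the block, and SE 0.05, edgeR adjusted p = 0.00026 with it). It passed in each of the 18 blocked fits that left out 1 library. Akt2 ranged over 225, 292 and 335 CPM (lowest, median and highest) unstimulated and over 211, 296 and 362 CPM stimulated, with a log2 fold change of 0.04 (SE 0.04, edgeR adjusted p = 0.54 with the block). Counts of Akt1 per kilobase were 0.703 to 0.807 times those of Akt2 in unstimulated libraries and 0.790 to 0.959 times in stimulated ones, and the ratio was higher in 9 of 9 pairs with a median fold of 1.19.

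**Figure D4:**
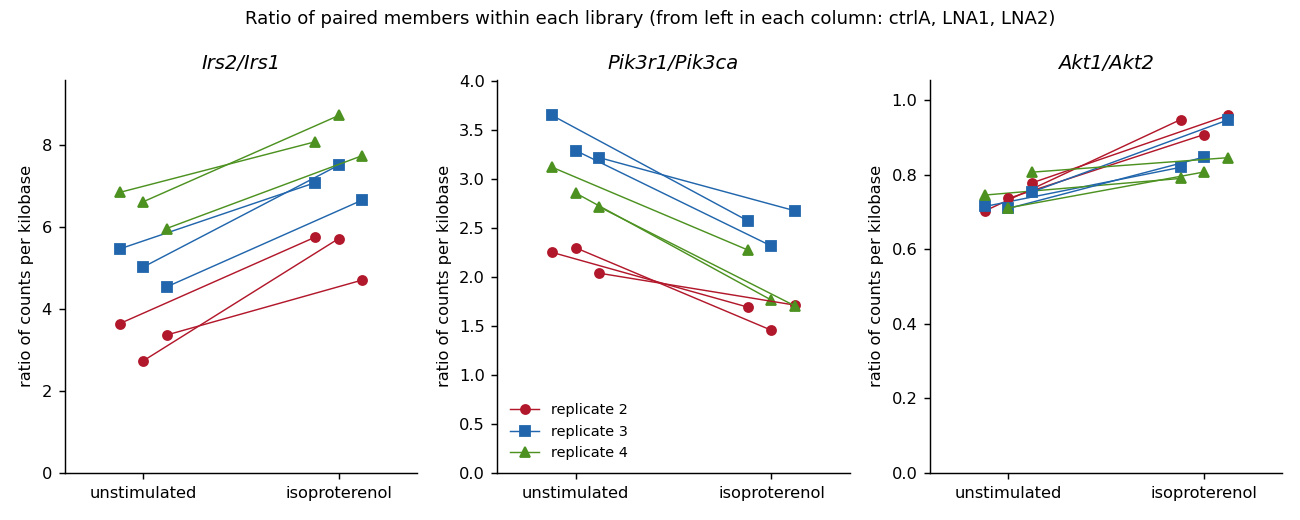
Ratio of counts per kilobase (y axes from 0) between members of the same step in each library, unstimulated and with isoproterenol, with a line for each pair of the same LNA and replicate number. The Irs2/Irs1 and Akt1/Akt2 lines rise in 9 of 9 pairs and the Pik3r1/Pik3ca lines fall in 9 of 9.

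Foxo1, the transcription factor below AKT, did not pass. Its lowest, median and highest levels were 47.9, 104 and 121 CPM unstimulated and 48.0, 101 and 121 CPM stimulated, which is nearly the same range. The log2 fold change was -0.02 (SE 0.06, edgeR adjusted p = 0.84 with the block), and the stimulated library was higher in 4 of 9 pairs. Grb14, the inhibitor of the receptor kinase, had 3 to 11 counts per library, so that it lay near the floor in every group and did not pass the filter. Mean levels ± SD of 9 libraries were 0.379 ± 0.164 CPM without and 0.474 ± 0.217 CPM with isoproterenol, with overlapping ranges. A difference in Grb14 was not detectable at this depth (log2 fold change 0.28, SE 0.36, edgeR adjusted p = 1.0 in a fit without a filter).

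Adipocyte markers moved with the same treatment. Their summed level over 8 genes ranged from 18250 to 29560 CPM unstimulated and from 14440 to 22860 CPM stimulated, and with the block 5 of the 8 fell and none rose (edgeR), next to 12.2% of all tested genes lower and 14.2% higher. The 6 brown adipocyte markers summed to 255 to 426 CPM before and 354 to 548 CPM after, and 4 of 5 tested rose and none fell. Ucp1, Ppargc1a and Dio2 of this list are also in the cAMP response list, so the lists are not separate. Preadipocyte markers summed to 41.2 to 57.0 CPM before and 42.7 to 88.6 CPM after, where Ly6a rose, Pdgfrb fell and the other 2 of 4 tested did not pass. Of the macrophage list Cd68 made up most of the sum, which was 8.28 to 28.8 CPM before and 12.4 to 44.6 CPM after. Cd68 rose by 0.90 on the log2 scale (SE 0.09, edgeR adjusted p = 2.5e-06), while Ptprc and Adgre1 had at most 3 counts throughout and Csf1r, Itgam and Lyz2 had means of 0.628, 0.123 and 0.172 CPM. Without the block 1 of 8 adipocyte markers fell, 3 of 5 brown adipocyte, 1 of 4 preadipocyte and 1 of 2 macrophage markers rose, and no other marker passed (edgeR), next to 2.67% of all tested genes higher and 1.91% lower. The endothelial sum was 2.06 to 3.80 CPM before and 1.77 to 3.99 CPM after. The part of these shifts in the values of the members was not tested.

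Within each LNA, 3 stimulated libraries were compared with 3 unstimulated ones. Without the block no member passed (edgeR), where 0.488% of all tested genes did in ctrlA cells, 0.702% in LNA1 cells and 0.395% in LNA2 cells, and in each LNA 1 member, Pik3r1, had an unadjusted p below 0.05. With the block 1 of 8 passed in ctrlA cells, 2 of 8 in LNA1 cells and 3 of 8 in LNA2 cells, where 7.88%, 9.84% and 9.55% of all tested genes passed. Pik3r1 passed in each of the 3, with log2 fold changes of -0.56 in ctrlA cells (SE 0.09, edgeR adjusted p = 0.00052), -0.66 in LNA1 cells (SE 0.09, edgeR adjusted p = 9.0e-05) and -0.47 in LNA2 cells (SE 0.09, edgeR adjusted p = 0.0022). Irs2 passed in LNA1 cells at 0.31 (SE 0.07, edgeR adjusted p = 0.0091) and in LNA2 cells at 0.35 (SE 0.07, edgeR adjusted p = 0.0051), and was at 0.19 (SE 0.07, edgeR adjusted p = 0.13) in ctrlA cells. Akt1 passed in LNA2 cells at 0.38 (SE 0.08, edgeR adjusted p = 0.0063) and was at 0.24 and 0.21 in ctrlA and LNA1 cells. With 1 library left out at a time, without the block, the Akt1 value in LNA2 cells ran from 0.18 to 0.53. That of Irs2 ran from -0.0089 to 0.65 in LNA1 cells and from 0.05 to 0.66 in LNA2 cells. Such ranges are not given here for the blocked fit, so they do not show how stable the blocked calls within an LNA are.

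Whether the response to isoproterenol differed between the LNAs was tested as an interaction. None of the 8 members passed for LNA1 or LNA2 in edgeR with or without the block, none had an unadjusted p below 0.05, and none passed in DESeq2. Of all tested genes 0% passed in either edgeR fit of these interactions. With the block the difference in the Pik3r1 response was -0.10 (SE 0.12) between LNA1 and ctrlA and 0.08 (SE 0.12) between LNA2 and ctrlA. For Irs2 it was 0.12 (SE 0.10) and 0.16 (SE 0.10), so the passing of Irs2 in LNA1 and LNA2 cells and not in ctrlA cells was not shown to be a difference between them.

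The comparisons of LNA1 and LNA2 with ctrlA, averaged over stimulation with 6 libraries against 6, asked whether these genes respond to the antisense oligonucleotides. Both comparisons share the ctrlA libraries. No member passed in either one, or between LNA2 and LNA1, in edgeR with or without the block. Without the block 0.475% of all tested genes passed for LNA1, 1.59% for LNA2 and 0.97% for LNA2 against LNA1, and no member had an unadjusted p below 0.05. With the block 7.8%, 20.6% and 15.4% passed, and 2, 3 and 1 of the members had an unadjusted p below 0.05. DESeq2 without the block called none, and with the block it called Irs1 and Pik3r1 in LNA2 cells (adjusted p = 0.032 and 0.027). The share of all tested genes called by DESeq2 is not given here, so these calls cannot be set against it. In the edgeR fit with the block Irs1 was higher by 0.24 on the log2 scale in LNA2 cells (SE 0.09, adjusted p = 0.059) and by 0.18 in LNA1 cells (SE 0.09, adjusted p = 0.22). In the pairs of libraries with the same replicate number and stimulation, Irs1 was higher in 6 of 6 for each LNA, as were 7.91% of all tested genes for LNA1 and 9.91% for LNA2. The shared control ctrlA is complementary to Irs1 over 10 bases, and its part in these Irs1 differences was not tested. For LNA1 Irs2 was also higher in 6 of 6 (0.11, SE 0.05, edgeR adjusted p = 0.19 with the block). Akt2 was lower in 6 of 6 for LNA1, as were 12.1% of all tested genes (-0.08, SE 0.05, edgeR adjusted p = 0.39 with the block). Pik3r1 differed by -0.17 in LNA2 cells (SE 0.06, edgeR adjusted p = 0.061) and by -0.11 in LNA1 cells (SE 0.06, edgeR adjusted p = 0.29), lower in 5 of 6 pairs each. Foxo1 differed by -0.18 in LNA2 cells (SE 0.08, edgeR adjusted p = 0.11), and Insr by -0.03 (SE 0.06, edgeR adjusted p = 0.78). Within a single stimulation state, blocked values of the members lay between -0.22 (Foxo1, LNA2, unstimulated) and 0.29 (Irs1, LNA2, isoproterenol), with edgeR adjusted p of 0.12 or more.

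Markers of cell types moved in the same comparison of LNA2 with ctrlA. With the block (edgeR), 3 of 8 adipocyte markers and 2 of 5 brown adipocyte markers fell and none rose, and 3 of 4 preadipocyte markers and 2 of 2 macrophage markers rose and none fell, where 20.6% of all tested genes passed. Without the block 1 of these passed, in the preadipocyte list, where 1.59% of all tested genes did. Adipocyte markers summed to 16980 to 29560 CPM in ctrlA and 14440 to 25480 CPM in LNA2 cells, and brown adipocyte markers to 338 to 548 CPM and 263 to 421 CPM. Preadipocyte markers summed to 41.2 to 77.3 CPM in ctrlA and 48.1 to 88.6 CPM in LNA2 cells, and macrophage markers to 8.28 to 24.8 CPM and 14.1 to 44.6 CPM, with Ptprc and Adgre1 near 0. For LNA1 1 adipocyte and 1 brown adipocyte marker fell, and 1 preadipocyte and 1 macrophage marker rose, with the block, where 7.8% of all tested genes passed. Without it 1 preadipocyte marker rose and no other marker passed for LNA1, where 0.475% of all tested genes did. The part of these shifts in the Irs1 and Pik3r1 values was not tested.

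In the joint test of the 6 groups, with an adjusted p limit of 0.001, no member passed without the block, where 0.455% of all tested genes did (edgeR). Pik3r1 had the smallest value, an adjusted p of 0.071, and was the only member with an unadjusted p below 0.05. DESeq2 called 1 member, and its share over all tested genes is not given here. With the block 1 member passed, Pik3r1 (edgeR adjusted p = 1.2e-05), where 8.93% of all tested genes did, and Irs2 lay just above the limit (edgeR adjusted p = 0.0010).

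The genes whose pattern was most like that of Pik3r1 were Epb41l2, Plpp3 and Vcl, which encode a membrane skeleton protein, a lipid phosphate phosphatase and the adhesion protein vinculin. Pearson correlations of log2 CPM over the 18 libraries, after the mean of each replicate number was removed, were 0.968, 0.965 and 0.964 among 10412 genes with a mean of at least 5 CPM. They are given as a description, since the 18 points share the stimulation, the LNAs and the sequencing. For Epb41l2 the means ± SD of 9 libraries were 156 ± 22.4 CPM before and 103 ± 9.93 CPM after isoproterenol.

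A list of 53 other insulin pathway genes was examined, of which 48 passed the filter. Without the block 1 of 48 passed with isoproterenol (edgeR): Socs3, a feedback inhibitor of cytokine and insulin receptors, rose by 0.40 (SE 0.10, adjusted p = 0.034). Of all tested genes 4.58% passed in that fit, 2.67% higher and 1.91% lower. With the block 5 rose and 9 fell, next to 26.4% of all tested genes. Among those with the largest changes were Grb7 at -1.43 (SE 0.39, edgeR adjusted p = 0.012), an adaptor related to Grb14, Trib3 at -0.53 (SE 0.05, edgeR adjusted p = 7.0e-07), a pseudokinase that binds AKT, and Socs3 at 0.41 (SE 0.07, edgeR adjusted p = 0.00020). By role, 4 of 11 substrates and effectors fell and none rose, 2 of 11 downstream kinases rose and 1 fell, and 2 of 10 inhibitors rose and 2 fell. Among the other subunits of phosphoinositide 3-kinase 1 of 4 fell, and among inositol lipid phosphatases 1 of 3 rose. The 4 effectors, named after their values were seen, were Tbc1d4 at -0.33, Srebf1 at -0.22, Slc2a4 at -0.20 and Eif4ebp1 at -0.20, which encode the AKT substrate that controls GLUT4 traffic, a lipogenic transcription factor, GLUT4 itself and a translation repressor. The median log2 fold change of the 48 genes was -0.04 with the block.

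**Figure D5:**
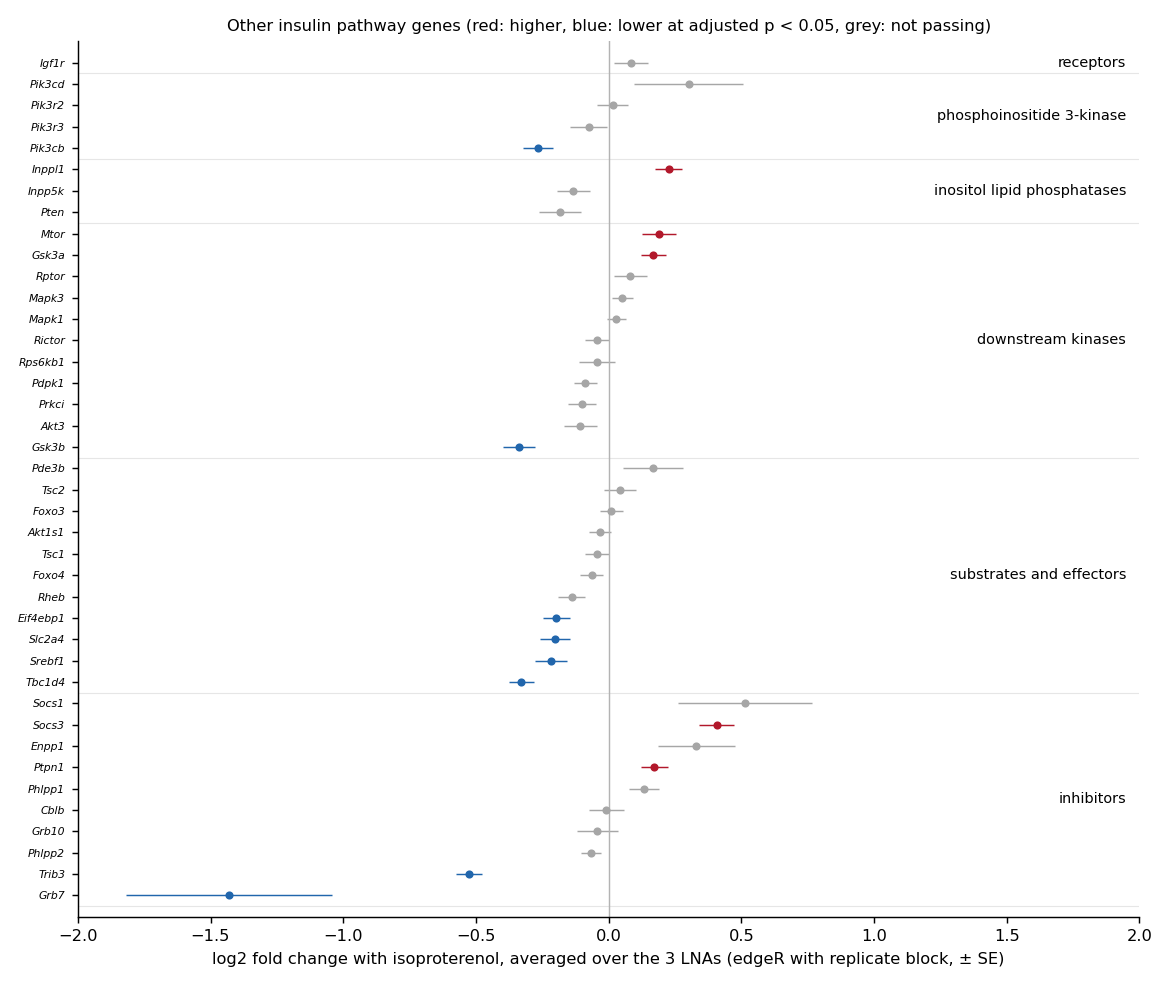
Log2 fold change with isoproterenol (x axis, edgeR with the replicate block, bars ± SE) for 40 of the 48 tested other insulin pathway genes, grouped by role and without the adaptors and docking proteins. Of the points, 5 are red (higher) and 8 are blue (lower), and all 4 coloured substrates and effectors are blue.

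With the LNAs, none of these 48 genes passed without the block (edgeR), where 0.475% of all tested genes did for LNA1 and 1.59% for LNA2. With the block 4 rose and 2 fell for LNA1, and 4 rose and 8 fell for LNA2, where 7.8% and 20.6% of all tested genes passed. For LNA1 the largest were Grb10 at 0.50 and Igf1r at 0.43, an inhibitory adaptor and the receptor for insulin-like growth factor (edgeR adjusted p = 0.0043 and 0.0032). For LNA2 they were Pik3cd at 1.25 and Enpp1 at -0.63, a catalytic subunit and an ectoenzyme that binds the insulin receptor (edgeR adjusted p = 0.0024 and 0.021).

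Of 20 FOXO target genes 16 were tested. Without the block 3 rose and 1 fell with isoproterenol (edgeR): Pck1 by 1.29 (SE 0.26, adjusted p = 0.0068), Pdk4 by 0.65 (SE 0.12, adjusted p = 0.0030) and Sod2 by 0.24 (SE 0.06, adjusted p = 0.040) rose, and Gadd45a at -0.38 (SE 0.10, adjusted p = 0.037) fell. Pck1 encodes the enzyme of glyceroneogenesis and Pdk4 a kinase that shuts off pyruvate oxidation. These counts stand next to 2.67% of all tested genes higher and 1.91% lower. With the block 4 of 16 rose and 6 fell, next to 14.2% and 12.2% of all tested genes, and Foxo1 itself was at -0.02. With the LNAs none of the 16 passed without the block, where 0.475% of all tested genes did for LNA1 and 1.59% for LNA2. With the block 1 rose and 5 fell for LNA1, and 0 rose and 5 fell for LNA2, where 7.8% and 20.6% of all tested genes passed.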

How the data were processed

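Libraries of polyadenylated RNA were read from paired ends. For quantification the authors ran salmon on the Gencode M22 transcripts (GRCm38), after bcl2fastq and trimming by cutadapt. The deposited values are expected counts per gene, already whole numbers (0 values were not whole). Versions, the summing of transcripts to genes and the use of strand are not given in the sources used here. Columns were assigned to libraries by title.

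All tests used edgeR 4.0.16 (R 4.3.3). The filter filterByExpr (minimum count 10, minimum total 15) left 14949 genes, with TMM scaling. Each group had its own term in a quasi-likelihood fit to the 18 libraries, and contrasts were tested two-sided, with Benjamini-Hochberg adjustment over all genes tested. Same-numbered libraries of different groups deviated together in 45 of 45 pairs (correlation of deviations from group means 0.24 to 0.72), and 17 of 18 libraries were closest to one of their own number. Of 90 pairs with other numbers, 29 also had a correlation above 0.1, up to 0.40, and the median was -0.44. The pairing is read from the numbers in the labels and this check, so fits with the replicate number as a block are given where they change a call. No libraries of a group were identical (0 of 18 pairs, chi-square per degree of freedom 3.07 to 107). Pairs of replicates 3 and 4 gave 3.07 to 22.5, and pairs that held replicate 2 gave 49.3 to 107. Replicates 3 and 4 were thus closer to each other than to replicate 2 in every group. Grb14 was fitted without a filter. Standard errors come from the F statistic. All members are named, as are up to 4 passing genes of each other list by size of change and the 3 genes most correlated with the member of smallest joint p. The 4 substrates and effectors of the pathway list were named outside this rule, after their values were seen. Gsk3b, a downstream kinase of that list at -0.34 with isoproterenol and the block, changed more than each of them. Alternatives were DESeq2 1.42.0, RLE scaling, no filter, the replicate block, left-out libraries, removal of mitochondrial and ribosomal RNA genes, and a fold limit. The members and lists were chosen with earlier results of these data known. Values of single genes in the group of adaptors and docking proteins of the pathway list are not reported here. Figures were drawn with matplotlib 3.10.9.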

Additional observations from a re-analysis of the deposited data

How the results depend on the processing

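Counts of members past the limit, of 8 tested, were recomputed under each alternative. With the replicate block they went from 1 to 5 for isoproterenol averaged over the LNAs, from 0 to 1 in ctrlA cells, from 0 to 2 in LNA1 cells, from 0 to 3 in LNA2 cells and from 0 to 1 in the joint test, and the block changed no other count of calls. With DESeq2 and the replicate block the same counts were 5, 2, 4, 3 and 3, and 2 members passed for LNA2 against ctrlA. Shares of all tested genes called by DESeq2 are not given here, so whether its counts exceed them cannot be read. DESeq2 without the block gave 1 in LNA1 cells and 1 in the joint test. Leaving out the 6 replicate 2 libraries gave 3 for isoproterenol without the block (Pik3r1, Irs2 and Akt1) and also 3 with it. Shares of all tested genes called in fits with libraries left out are not given here, so such counts cannot be set against them. A limit of 0.5 on the absolute log2 fold change left 1 of the 5 blocked calls, and the alternatives to the blocked fit were chosen after seeing the data. Leaving out 1 library at a time gave 1 to 1 without the block and 5 to 5 with it. In these fits the isoproterenol values without the block ran from -0.31 to -0.10 for Insr and from -0.28 to -0.13 for Irs1. Those of Irs2 ran from 0.18 to 0.40. RLE scaling, no filter and removal of mitochondrial and ribosomal RNA genes moved no count. Of 2802 member values under alternatives, none reversed a call, 28 passed the limit where the value first given did not, 2 no longer passed, and 255 had another sign but passed in neither fit. Depth limits Grb14, and 3 libraries per group limit the comparisons within an LNA. The causes of these differences were not tested.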
